A study of Mus musculus with 4 samples.

Results

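The conjugating enzymes of the intestinal epithelium were taken here as the UDP-glucuronosyltransferases (UGT; Ugt1a, Ugt2a, Ugt2b and Ugt3a genes), the cytosolic sulfotransferases (SULT), the cytosolic glutathione S-transferases (GST) and the microsomal glutathione S-transferases (MGST). Members were all genes on the array whose name in the scanner files begins with one of these family stems, whatever their signal. The rule gave 56 genes with 81 probes, of 37324 gene names with 56605 probes in all. There were 14 UGT, 19 SULT, 20 GST and 3 MGST genes.

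RNA was measured on 4 single-colour mouse arrays, 1 for each of 4 groups: jejunum of DAO G181R mice, jejunum of DAO wild-type mice, ileum of DAO G181R mice and ileum of DAO wild-type mice. Dao encodes D-amino acid oxidase, and the G181R form, carried here on both copies (DAOG181R/G181R), is known to lack enzyme activity. All mice, the DAOwt/wt controls included, were Tcrbd-/- on the C57BL/6J background and 9 weeks old, so every group lacked T cells with alpha-beta or gamma-delta receptors. The epithelium was scraped off mechanically and the RNA of 5 mice was pooled for each group. No group had a second array, so no p-value, no SD between animals and no test of any difference could be given. Spots printed in replicate on these arrays gave a median SD of a log2 difference of 0.0560 to 0.0579, which covers spot noise alone and neither mice nor pools.

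Conjugating enzymes make drugs, dietary compounds, bile acids, bilirubin and steroid or thyroid hormones more water-soluble by joining them to a polar group. UGT enzymes sit in the membrane of the endoplasmic reticulum and transfer glucuronic acid from UDP-glucuronate, SULT enzymes transfer sulfate from PAPS in the cytosol, and GST enzymes join glutathione to electrophiles. The small intestine carries all of these families, mostly in absorptive enterocytes, and transporters of the ABC family then export the conjugates to the lumen or the blood.

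The lowest differences by genotype among these enzymes in jejunum lay in 4 Ugt2b genes of 1 cluster on chromosome 5, so the bases of their probes are shown first. A stretch of 30 bases of each 60-base probe is given, 5′ to 3′, and capitals mark the longest run that the Ugt2b5 and Ugt2b37 probes have in common.

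Ugt2b5: gaacaAACTTTCAGCCTCATTCTtatttat

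Ugt2b37: tgaatgAACTTTCAGCCTCATTCTaattta

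Ugt2b36: aagtcatagacaatcctttctataaagaga

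Ugt2b38: taagcacctgagatcacttggacataacct

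The shared run was 18 bases long, so part of the signal of Ugt2b5 and Ugt2b37 could come from either transcript and their values are not fully separate. No other pair of these 4 probes had a common run of more than 7 bases. The probes were compared with each other and not with the transcripts of the other genes. Whether each of the 4 reads only its own gene was therefore not tested. In mm9, all on the minus strand, the probe of Ugt2b5 lay at chr5:87554155-87554214, that of Ugt2b37 at chr5:87669707-87669766 and that of Ugt2b38 at chr5:87839345-87839404. The probe of Ugt2b36 covered chr5:87495455-87509913, an interval wider than the probe, as for a probe that crosses a splice junction. The files do not say in which exon or UTR a probe lies.

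The Ugt1a probes are shown because the place of a probe bears on which gene its value can be assigned to. Mouse Ugt1a genes each have a first exon of their own that is spliced to exons they all share. The RefSeq gene table (GRCm38.p6) lists 9 protein-coding Ugt1a genes with 9 different starts and only 2 different ends. Capitals mark the longest run common to the Ugt1a10 probe (mm9 chr1:89952780-89952839) and the upstream Ugt1a6b probe (chr1:90004249-90004308). The third sequence is a Ugt1a6b probe near the far end of the locus (chr1:90114900-90114959).

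Ugt1a10: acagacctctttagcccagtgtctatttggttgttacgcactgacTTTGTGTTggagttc

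Ugt1a6b upstream: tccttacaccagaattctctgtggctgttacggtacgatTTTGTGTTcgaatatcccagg

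Ugt1a6b downstream: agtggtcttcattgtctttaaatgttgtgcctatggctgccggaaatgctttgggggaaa

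The Ugt1a10 and upstream Ugt1a6b probes had a common run of 8 bases. The brightest Ugt1a6b probe, which stands for the gene below, lay downstream too (chr1:90115493-90115552), as did the Ugt1a6a probe (chr1:90116514-90116573). Signals of these downstream probes therefore cannot be assigned to 1 Ugt1a gene. The longest runs between any member genes joined Sult2a4 and Sult2a1 (36 bases) and Sult2a2 and Sult2a1 (26 bases), whose probes were not above background on any array.

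Signals are given as normalised signal, the background-subtracted intensity of a probe divided by the 75th percentile of all non-control probes of that array. A value of 1 is therefore the 75th percentile, and levels of different probes are not comparable. The brightest probe stood for its gene. A gene was measured in a comparison when the scanner software marked its probe as well above background on both arrays, and a fold of 2 was used to count differences.

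Of the 56 genes, 39 were well above background on all 4 arrays, 4 on some of them and 13 on none. By family, the genes on all 4 arrays were 11 of 14 UGT, 8 of 19 SULT, 17 of 20 GST and 3 of 3 MGST genes. The 13 dim genes were the UGT genes Ugt2b1 and Ugt3a1, the estrogen sulfotransferase gene Sult1e1, the hydroxysteroid sulfotransferase genes Sult2a1 to Sult2a7, Sult3a1, Sult6b1 and Gstt4. Their signals stayed between 0.00719 and 0.0315 on every array, so for these genes only a bound is known. Gstm7 was above background only in jejunum, Gsto2 on 3 arrays, Sult5a1 only in wild-type jejunum, and Ugt3a2 only in both G181R tissues.

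All 7 enterocyte genes examined (Vil1, Krt20, Alpi, Apoa4, Fabp2, Epcam and Cdh1) were well above background on every array. Their presence on every array cannot check which segment an array came from. Signals of smooth muscle genes were above background as well, 8 of 8 on every array. The Dao probe read 7.76 in G181R jejunum against 8.39 in wild-type jejunum, and 0.825 in G181R ileum against 0.849 in wild-type ileum. A probe for the transcript cannot tell the G181R allele from the wild-type one, so this does not check the genotype labels.

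In jejunum, the conjugating enzymes as a group had lower signals in G181R than in wild-type epithelium, and the lowest values were those of Ugt2b genes. Of 40 measured members, 35 were lower, against 51.7% of all 21354 measured genes. At least 2-fold lower were 5 members, Ugt2b5, Ugt2b36, Ugt2b37, Ugt2b38 and Gsta3, against 0.749% of all genes. No member was at least 2-fold higher, against 0.763% of all genes. The median log2 difference of the members was -0.38, and that of all genes was -0.01.

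In ileum, the same direction held over more members. Of 40 measured members, 37 were lower in G181R, against 46.8% of all 21608 measured genes. At least 2-fold lower were 9 members, against 3.21% of all genes, and none was at least 2-fold higher, against 2.0% of all genes. The 9 were the 5 named for jejunum together with Gstm1, Gstm3, Gstt1 and Sult1a1. The median log2 difference was -0.42 for the members and 0.03 for all genes. In bulk tissue, fewer cells of a type and less RNA per cell cannot be told apart.

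**Figure D1:**
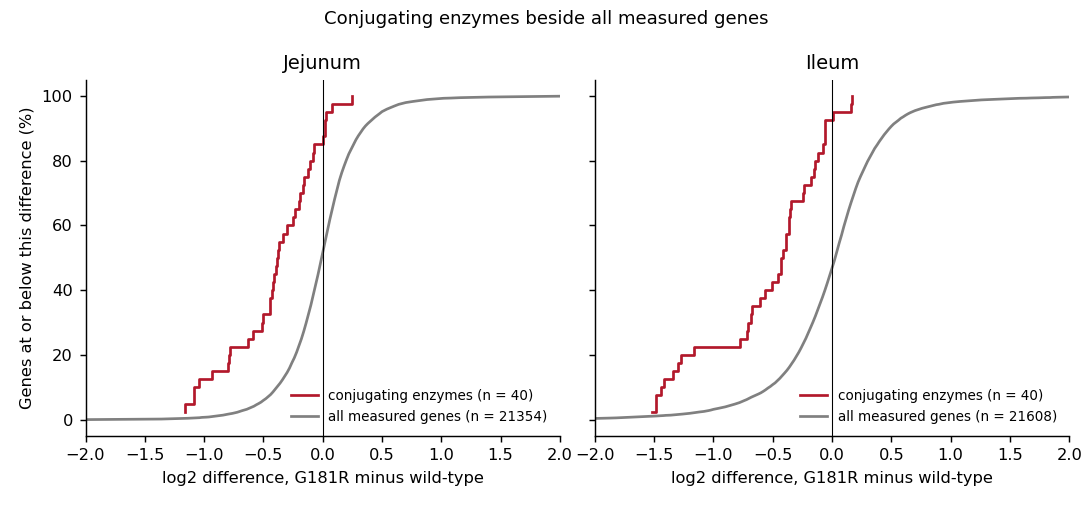
Cumulative share of genes (y axis, %) at or below each log2 difference of normalised signal, G181R minus wild-type (x axis), for the measured conjugating enzymes and for all measured genes, in jejunum (left) and ileum (right). The enzymes lay to the left of all genes in both tissues, with medians of -0.38 in jejunum and -0.42 in ileum, against -0.01 and 0.03 for all genes.

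The 2 genotype comparisons use different arrays. Of the 39 members measured on all 4 arrays, 32 were lower in G181R in both tissues, against 32.9% of all 20543 such genes. The 5 members at least 2-fold lower in both tissues stand beside a share of 0.200% of all genes. Just outside the 2-fold limit in jejunum lay Gstm1 at a log2 difference of -0.93 and Gstm4 at -0.80. Just outside it in ileum lay Gsta4 at -0.77, Gstm6 at -0.71 and Gstm4 at -0.71.

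These counts depend on how background is treated. With normexp background correction, an alternative that compresses low signals, 1 member (Ugt2b5) was at least 2-fold lower in jejunum and 6 were in ileum. Over all genes the same alternative counted 33 in jejunum, against 160 before, and 216 in ileum, against 693. The 9 genes were lower in G181R in both tissues under each of the 7 alternatives, though for Gstt1 the deposited table holds a fill value and says nothing.

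**Figure D2:**
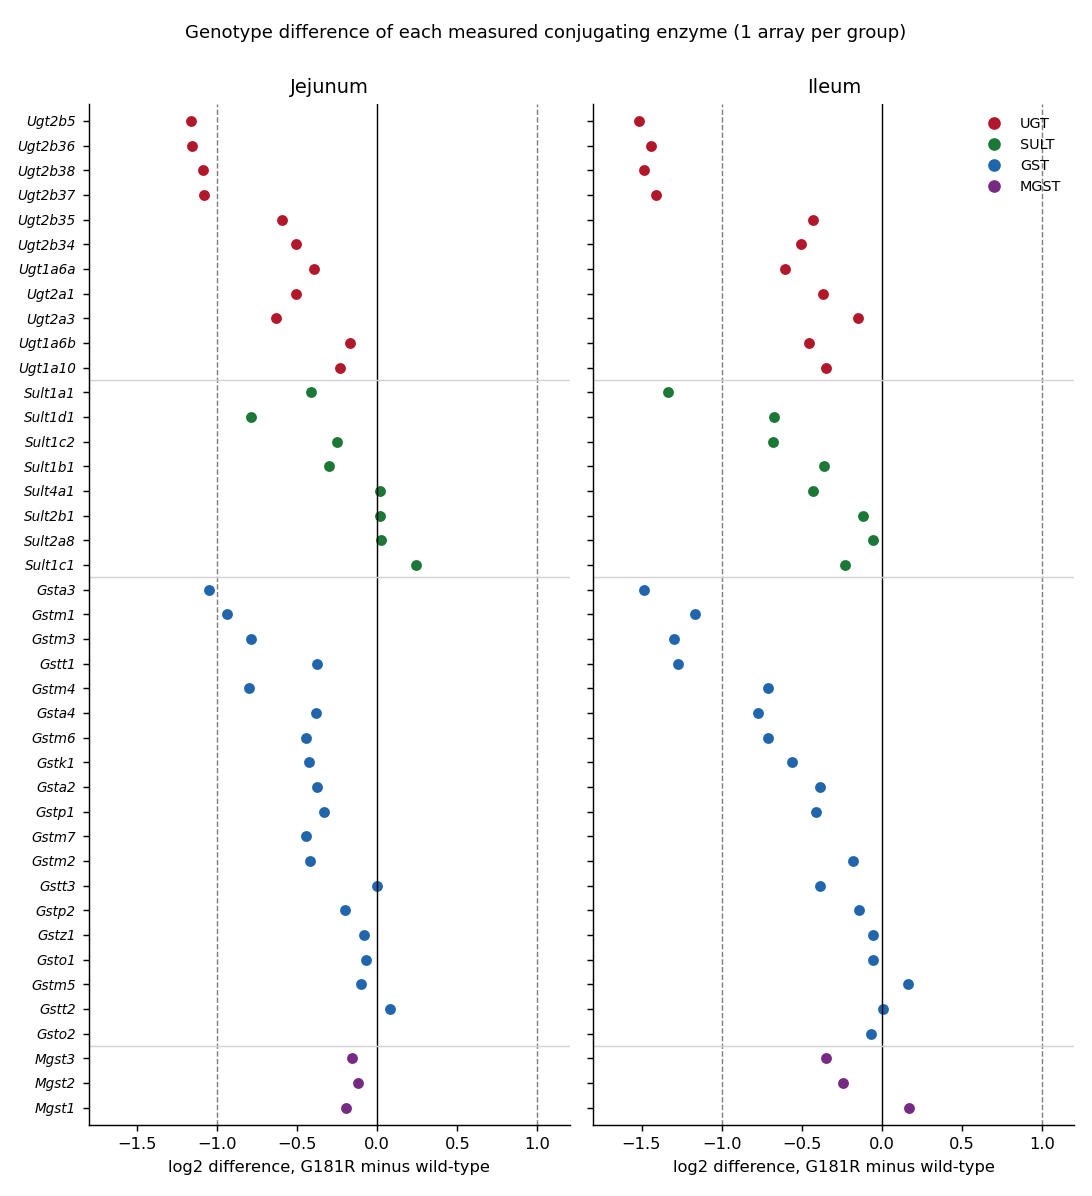
Log2 difference of normalised signal, G181R minus wild-type (x axis), of each conjugating enzyme gene (y axis) measured in at least 1 tissue, in jejunum (left) and ileum (right), from 1 array per group. Points are coloured by enzyme family and dashed lines mark a fold of 2. The 4 Ugt2b genes at the top lie between -1.08 and -1.52 in the 2 tissues, and all 11 UGT genes lie below 0 in both, though Ugt2a3 in ileum moved to 0.01 with normexp correction.

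All 11 measured UGT genes were lower in G181R in both tissues, against 51.7% of all genes in jejunum and 46.8% in ileum. With normexp correction, Ugt2a3 in ileum stood at 0.01. The 11 values are not fully separate readings. The probes of Ugt1a6a and Ugt1a6b cannot be assigned to 1 Ugt1a gene, and those of Ugt2b5 and Ugt2b37 share a run of bases. The median log2 difference of the 11 UGT genes was -0.59 in jejunum and -0.51 in ileum. UGT2B enzymes glucuronidate steroids, bile acids and many drugs. Ugt2b5 had a signal of 3.16 in G181R jejunum against 7.07 in wild-type jejunum, and 0.597 in G181R ileum against 1.71 in wild-type ileum. Its log2 differences were -1.16 in jejunum and -1.52 in ileum. The G181R array was the lower one in both tissues.

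Ugt2b36 read 1.05 in G181R jejunum against 2.35 in wild-type jejunum, and 0.288 in G181R ileum against 0.783 in wild-type ileum. This gave log2 differences of -1.16 and -1.44. Ugt2b37 read 1.27 in G181R jejunum against 2.68 in wild-type jejunum, and 0.232 in G181R ileum against 0.618 in wild-type ileum. On the log2 scale it differed by -1.08 in jejunum and -1.41 in ileum, and its probe is the one that shares the run with Ugt2b5. Ugt2b38 read 4.55 in G181R jejunum against 9.66 in wild-type jejunum, and 0.853 in G181R ileum against 2.39 in wild-type ileum. Its log2 differences were -1.08 and -1.49. With normexp correction the ileum differences were -0.80 for Ugt2b36, -0.73 for Ugt2b37, -1.19 for Ugt2b38 and -1.18 for Ugt2b5, so that Ugt2b36 and Ugt2b37 were no longer past 2-fold.

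The other genes of the same chromosome 5 cluster differed less. Ugt2b34 had a signal of 93.4 in G181R jejunum against 132 in wild-type jejunum, and 37.4 in G181R ileum against 53.1 in wild-type ileum. Its log2 difference was -0.50 in jejunum and -0.51 in ileum. Ugt2b35 differed by -0.59 in jejunum and by -0.43 in ileum. Ugt2a1 differed by -0.51 and -0.37. Ugt2a3, whose human counterpart conjugates bile acids, read 19.3 in G181R jejunum against 29.9 in wild-type jejunum (log2 difference -0.63). Ileal Ugt2a3 signals were 0.162 in G181R against 0.180 in wild-type mice, a difference of -0.15 that became 0.01 with normexp correction.

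The Ugt1a probes all differed by less than 2-fold between genotypes. The brightest Ugt1a6b probe read 245 in G181R jejunum against 275 in wild-type jejunum, and 62.4 in G181R ileum against 85.5 in wild-type ileum. The log2 differences were -0.17 and -0.45. The upstream Ugt1a6b probe printed above differed by -0.34 in jejunum and -0.85 in ileum, at signals of 0.0535 in G181R ileum and 0.0962 in wild-type ileum. Ugt1a10 differed by -0.23 in jejunum and -0.35 in ileum. Ugt1a6a differed by -0.39 and -0.61, and the downstream Ugt1a6b probe printed above by -0.32 and -0.54. Ugt3a2, of a UGT family that uses other sugars than glucuronic acid, was above background in G181R jejunum (0.0583) and not in wild-type jejunum, at least 1.24-fold higher. In ileum it was above background in G181R (0.0642) and not in wild-type, at least 1.65-fold higher.

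**Figure D3:**
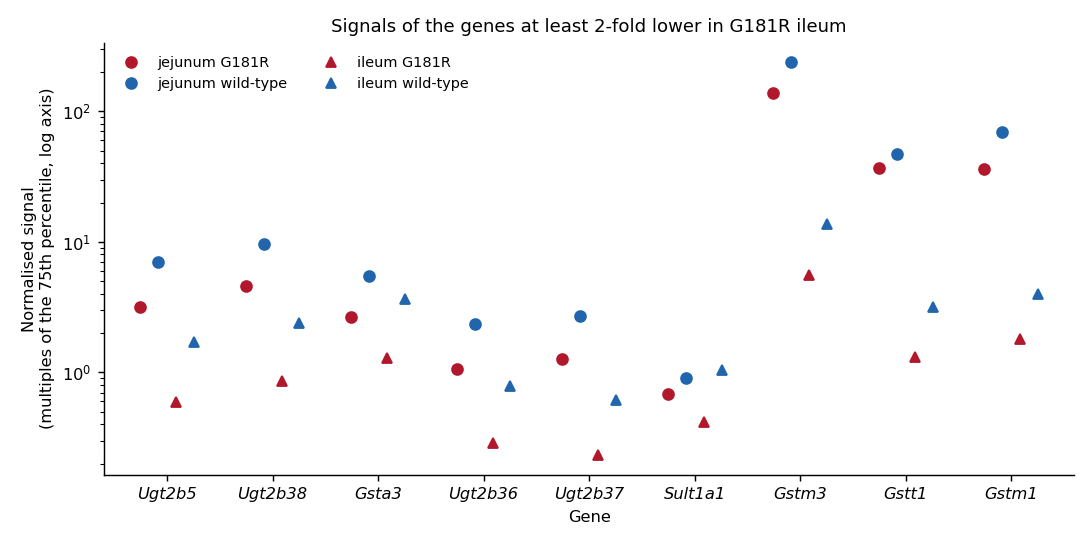
Normalised signal (y axis, multiples of the 75th percentile of the array, log axis) on each of the 4 arrays for the 9 conjugating enzyme genes at least 2-fold lower in G181R ileum (x axis). Circles are jejunum and triangles are ileum, with G181R in red left of wild-type in blue. In all 9 genes the G181R array read below the wild-type array of the same tissue.

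The 4 Ugt2b genes at least 2-fold lower in both tissues also had in common a stretch of promoter sequence, which played no part in choosing them. Promoters were read from RefSeq (GRCm38.p6), 250 bases before to 50 bases after each annotated start, and 48 of the 56 genes had at least 1. The 40 bases of Ugt2b5 around a nuclear receptor half-site, AGGTCA in capitals, are shown with the best ungapped match in each other promoter of the cluster that had one over more than 20 bases.

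Ugt2b5: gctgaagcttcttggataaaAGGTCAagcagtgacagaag

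Ugt2b37: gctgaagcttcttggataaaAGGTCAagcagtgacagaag

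Ugt2b38: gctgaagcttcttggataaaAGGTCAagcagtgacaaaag

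Ugt2b36: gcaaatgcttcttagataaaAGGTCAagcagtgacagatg

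Ugt2b35: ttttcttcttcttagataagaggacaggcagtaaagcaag

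In GRCm38.p6 the Ugt2b5 stretch lay at chr5:87140343-87140382 on the minus strand, from 42 to 3 bases before the start. Those of Ugt2b37 (chr5:87254808-87254847), Ugt2b38 (chr5:87424209-87424248) and Ugt2b36 (chr5:87092561-87092600) were on the minus strand too, and that of Ugt2b35 (chr5:87000815-87000854) was on the plus strand. Ugt2b37 had all 40 bases in common with it, Ugt2b38 had 39, Ugt2b36 had 35 and Ugt2b35 had 26. The best matches in the promoters of Ugt2b1, Ugt2a3, Ugt2b34 and Ugt2a1 had 17 to 20 identical bases. Among all 32851 promoters, only those of Ugt2b5, Ugt2b36, Ugt2b37 and Ugt2b38 had a stretch with 30 or more of the 40 bases. Gsta3, the other member at least 2-fold lower in both tissues, was not among them. The bases searched for came from Ugt2b5, so the match of that gene was fixed in advance. This is a description of the bases, and nothing was measured here about a protein that binds them.

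The motif AGGTCA, searched on both strands, was in 16.3% of all promoters and in 16.7% of the 60 promoters of member genes, which were those of 10 genes: Gstk1, Gstm1, Sult1b1, Sult1e1, Sult2a8, Ugt2b35, Ugt2b36, Ugt2b37, Ugt2b38 and Ugt2b5. The longer AAAGGTCA, which contains it, was in 1.51% of all promoters and in 8.33% of member promoters, those of 5 genes, the 4 Ugt2b genes and Sult2a8. It was taken from the stretch that the 4 Ugt2b promoters have nearly in common, so the higher share is no separate result. Sult2a8 differed between genotypes by only 0.03 in jejunum and -0.06 in ileum. GCGTG, the core of the xenobiotic response element, was in 32.4% of all promoters and in 16.7% of member promoters, those of 8 genes. TGACNNNGC, the core of the antioxidant response element, was in 12.4% of all promoters and in 6.67% of member promoters, those of 4 genes, Gsta3, Gstm5, Gstm7 and Mgst1. The motifs were chosen after the promoters had been read.

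Of the GST genes, 17 of 18 measured in jejunum and 16 of 18 measured in ileum were lower in G181R. Over all measured genes, 51.7% were lower in jejunum and 46.8% in ileum. Gsta3, an alpha-class GST known in mice for conjugating aflatoxin epoxide, read 2.66 in G181R jejunum against 5.50 in wild-type jejunum, and 1.29 in G181R ileum against 3.62 in wild-type ileum. The log2 differences were -1.05 and -1.49, and a second Gsta3 probe gave -0.93 in jejunum and -1.41 in ileum. Averaged over all its probes, Gsta3 fell short of 2-fold in jejunum. The other alpha-class gene with bright signal, Gsta2, read 119 in G181R jejunum against 154 in wild-type jejunum, and 18.8 in G181R ileum against 24.6 in wild-type ileum. These are log2 differences of -0.38 in jejunum and -0.39 in ileum.

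The mu-class genes lie side by side on chromosome 3 and conjugate many electrophiles, among them epoxides. Gstm3 read 138 in G181R jejunum against 237 in wild-type jejunum, and 5.60 in G181R ileum against 13.8 in wild-type ileum. The log2 differences were -0.78 and -1.30. Gstm1 read 36.0 in G181R jejunum against 68.7 in wild-type jejunum, and 1.79 in G181R ileum against 4.0 in wild-type ileum. Its log2 differences were -0.93 and -1.16. The files place this Gstm1 probe on chromosome 5 (mm9 chr5:117082490-117082549), away from the cluster, and the second Gstm1 probe, on chromosome 3, differed by -0.93 in jejunum and -0.88 in ileum. Gstm1 was thus past 2-fold in ileum by 1 of its 2 probes.

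Gstm4 read 2.14 in G181R jejunum against 3.73 in wild-type jejunum, and 0.136 in G181R ileum against 0.222 in wild-type ileum. The gene differed on the log2 scale by -0.80 and -0.71. Gstm6 read 15.3 in G181R jejunum against 20.8 in wild-type jejunum, and 0.395 in G181R ileum against 0.648 in wild-type ileum, which is -0.44 and -0.71 on the log2 scale. Gstm5, at the edge of the cluster, differed by -0.10 in jejunum and 0.16 in ileum, and by -0.09 and 0.43 with its second probe. Mu-class transcripts are close copies of each other, and the arrays' probes may not separate them fully.

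Among the theta-class genes on chromosome 10, Gstt1 stood apart from its neighbours. Gstt1, which acts on small halogenated molecules, read 36.4 in G181R jejunum against 47.2 in wild-type jejunum, and 1.31 in G181R ileum against 3.17 in wild-type ileum. The log2 differences were -0.37 in jejunum and -1.27 in ileum. Gstt3 differed by -0.39 in ileum, and Gstt2 by 0.08 in jejunum and 0.01 in ileum. A second Gstt2 probe gave 0.04 in jejunum and -0.30 in ileum, so the sign of Gstt2 in ileum depended on the probe. The brightest probe of Gstt1 is 1 of those for which the deposited value table holds a fill value, so that table gives no usable difference for it.

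Of the other GST genes, Gstk1, a kappa-class enzyme, read 34.2 in G181R jejunum against 46.0 in wild-type jejunum, and 7.86 in G181R ileum against 11.6 in wild-type ileum. It differed by -0.43 in jejunum and -0.56 in ileum, and Gstp1, of the pi class, by -0.33 and -0.41. Gsto1, an omega-class enzyme, read 214 in G181R jejunum against 224 in wild-type jejunum, and 95.6 in G181R ileum against 99.6 in wild-type ileum. Gstp2, of the pi class, read 202 in G181R jejunum against 232 in wild-type jejunum, and 133 in G181R ileum against 147 in wild-type ileum. Gstp2 and Gstp1 are near-identical copies that the probes may not separate.

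Mgst2, a membrane enzyme that also makes leukotriene C4, read 224 in G181R jejunum against 244 in wild-type jejunum, and 108 in G181R ileum against 128 in wild-type ileum. Mgst3 read 48.1 in G181R jejunum against 53.6 in wild-type jejunum, and 19.6 in G181R ileum against 25.0 in wild-type ileum. Mgst1 was lower in G181R jejunum (49.95 against 57.1 in wild-type) and higher in G181R ileum (65.5 against 58.2 in wild-type), with log2 differences of -0.19 and 0.17.

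Of the 8 measured SULT genes, 4 were lower in G181R jejunum, near the share of 51.7% over all genes. In G181R ileum 8 were lower, against 46.8% of all genes. Sult1a1, the main phenol sulfotransferase, read 0.686 in G181R jejunum against 0.912 in wild-type jejunum, and 0.414 in G181R ileum against 1.05 in wild-type ileum. Its log2 differences were -0.41 and -1.34, and in ileum it was not past 2-fold with normexp correction (-0.92). Sult1d1, which in mice sulfates catecholamines, read 20.7 in G181R jejunum against 35.8 in wild-type jejunum, and 9.94 in G181R ileum against 15.9 in wild-type ileum, which is -0.79 and -0.68 on the log2 scale. Sult1b1, a sulfotransferase of thyroid hormones and phenols, read 149 in G181R jejunum against 183 in wild-type jejunum, and 50.8 in G181R ileum against 65.2 in wild-type ileum. Its log2 differences were -0.30 and -0.36.

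Sult2b1, which sulfates cholesterol and pregnenolone, read 54.4 in G181R jejunum against 53.6 in wild-type jejunum, and 36.3 in G181R ileum against 39.5 in wild-type ileum. Sult2a8, a hydroxysteroid sulfotransferase, read 2.36 in G181R jejunum against 2.32 in wild-type jejunum, and 2.44 in G181R ileum against 2.54 in wild-type ileum. Their log2 differences were 0.02 and -0.12 for Sult2b1 and 0.03 and -0.06 for Sult2a8. The brightest Sult5a1 probe was above background only in wild-type jejunum (0.0799), and in G181R jejunum it was at least 2.19-fold lower. The lowest signal well above background on the wild-type jejunum array was 0.0472, so this reading is near the floor. The other Sult5a1 probes were not above background on any array, and the deposited table holds a fill value for the brightest one. Sult4a1 differed by 0.01 in jejunum and -0.43 in ileum at signals near background, and the mean over its probes turned both signs (-0.15 in jejunum and 0.24 in ileum).

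The difference by genotype was set between tissues as the ileum difference minus the jejunum difference. Over the 39 members on all 4 arrays its median was -0.14, and it was below 0 for 28 of them. Over all 20543 genes its median was 0.01, and 48.2% were below 0. The members at or below -0.5 were Sult1a1 (-0.93), Gstt1 (-0.90) and Gstm3 (-0.51), which is 7.69% of the members against 8.27% of all genes.

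The 2 segments of the small intestine differed much more than the genotypes did. In G181R mice, 36 of 41 measured members were lower in ileum than in jejunum, against 52.0% of all 21605 measured genes. At least 2-fold lower in ileum were 26 members, against 8.73% of all genes, and 1 was at least 2-fold higher, against 7.30%. In wild-type mice, 34 of 39 measured members were lower in ileum, against 53.4% of all 20879 genes. At least 2-fold lower were 24 members, against 9.11%, and 2 were at least 2-fold higher, against 7.42%. The median log2 difference of the members was -1.29 in G181R and -1.36 in wild-type mice, and that of all genes was -0.03 in G181R and -0.05 in wild-type mice. In both genotypes, 24 members were at least 2-fold lower in ileum, against 6.38% of all genes.

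**Figure D4:**
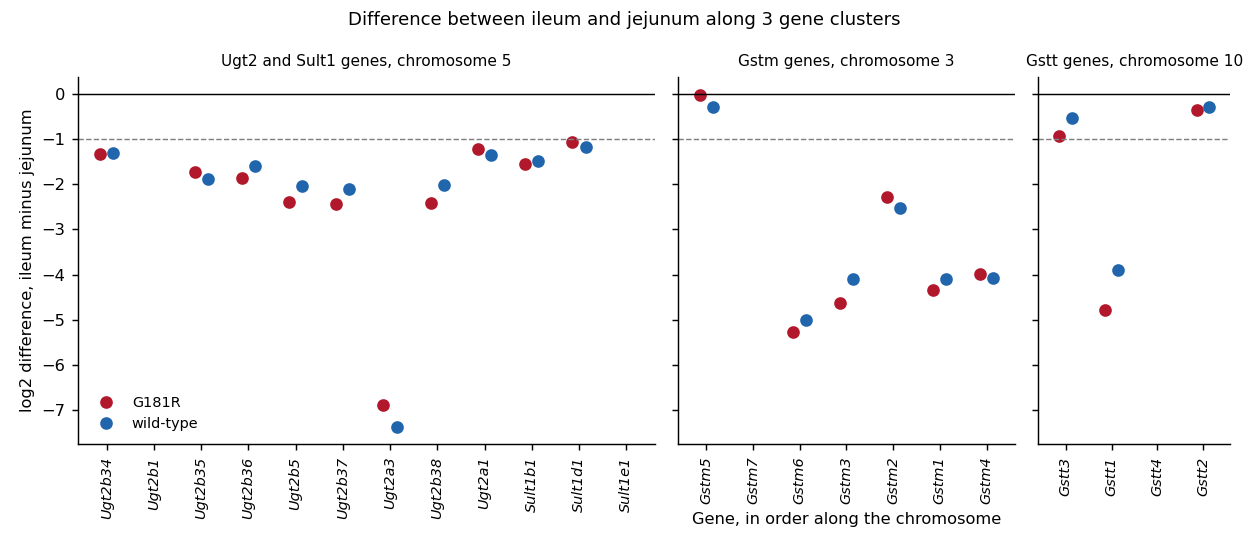
Log2 difference of normalised signal, ileum minus jejunum (y axis), of the genes of 3 clusters in their order along the chromosome (x axis), in G181R (red) and wild-type (blue) mice. Genes without points were not above background on all arrays compared, and the dashed line marks a 2-fold lower signal. Ugt2a3 lies at -6.90 in G181R and -7.38 in wild-type mice, far below its neighbours, and Gstt1 lies at -4.79 in G181R and -3.90 in wild-type mice.

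The member with the most different signal was Ugt2a3. It read 0.162 in G181R ileum against 19.3 in G181R jejunum, a 119-fold lower signal. In wild-type mice it read 0.180 in ileum against 29.9 in jejunum, 166-fold lower. With normexp correction its log2 differences shrank to -5.32 in G181R and -5.95 in wild-type mice, against -6.90 and -7.38. Its probe (mm9 chr5:87754406-87754465, minus strand) lies between those of Ugt2b37 and Ugt2b38, whose log2 differences in wild-type mice were -2.12 and -2.01. All 11 UGT genes measured in wild-type mice were at least 2-fold lower in ileum, from -1.32 for Ugt2b34 to -7.38 for Ugt2a3. The share over all genes was 9.11%. In G181R mice 11 of 12 measured UGT genes were at least 2-fold lower in ileum, against 8.73% of all genes. The other, Ugt3a2, differed by 0.14 at signals near background.

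In the mu class, Gstm6 read 0.648 in wild-type ileum against 20.8 in wild-type jejunum, 32.1-fold lower. A second Gstm6 probe gave a log2 difference of -3.94, against -5.00 for the first, the widest gap between probes of 1 gene in this comparison. Gstm3 was 17.2-fold lower in wild-type ileum, Gstm1 was 17.2-fold lower and Gstm4 was 16.8-fold lower. The log2 difference of Gstm4 was -2.83 with normexp correction, against -4.07 without it. Gstm7 was above background only in jejunum and was at least 20.8-fold lower in wild-type ileum. Gstm2 was lower in wild-type ileum by a log2 difference of -2.53, and Gstm5, the next gene to Gstm7, differed by only -0.30.

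Gstt1 was 14.9-fold lower in wild-type ileum, and its neighbours Gstt3 and Gstt2 differed by -0.55 and -0.30 on the log2 scale. Gsta2 was 6.26-fold lower in wild-type ileum. Pi-class and omega-class genes differed less, with log2 differences in wild-type mice of -0.65 for Gstp2 and -1.17 for Gsto1.

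The SULT genes differed in both directions along the intestine. Of 8 measured genes, 4 were lower and 4 higher in wild-type ileum, with a median log2 difference of 0.02. In G181R mice 5 were lower and 3 higher in ileum, with a median of -0.58. Over all genes 53.4% were lower in ileum in wild-type and 52.0% in G181R mice, so these counts lay near the share of all genes. Sult1c2 read 1.18 in G181R ileum against 0.377 in G181R jejunum, and 1.89 in wild-type ileum against 0.448 in wild-type jejunum. Its log2 difference was 1.64 in G181R and 2.08 in wild-type mice, and it was the member at least 2-fold higher in ileum in both genotypes. With normexp correction the wild-type difference was 1.48. Sult4a1, known as a brain sulfotransferase with no settled substrate, read 0.170 in wild-type ileum against 0.0658 in wild-type jejunum, a log2 difference of 1.37 at signals near background. That difference was 0.23 with normexp correction and 0.54 as the mean over its probes, and so not past 2-fold in either. Sult1b1 and Sult1d1, which lie beside the Ugt2 genes, differed by -1.49 and -1.17. Mgst1 did not share the lower ileal signal, with a log2 difference of 0.03 in wild-type mice.

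The enzymes and carriers that supply the conjugation reactions showed both directions by genotype. Of 6 genes for UDP-glucuronate supply and glucuronide breakdown, 3 were lower and 3 higher in G181R in each tissue, with medians of 0.06 in jejunum and 0.03 in ileum. Ugdh, which makes UDP-glucuronate, read 78.8 in G181R jejunum against 110 in wild-type jejunum, and 21.9 in G181R ileum against 37.2 in wild-type ileum. Of 11 genes for PAPS and sulfate, 6 were lower and 5 higher in each tissue, with medians of -0.04 in jejunum and -0.02 in ileum. Of 12 measured genes for glutathione supply, 7 were lower in jejunum and 6 in ileum, with none past 2-fold in either tissue. The other gene, Slc7a11, which imports cystine and is also listed as an NRF2 target, was above background only in G181R ileum (0.0858), at least 2.2-fold higher than in wild-type ileum. Gclm, the modifier subunit of the enzyme that starts glutathione synthesis, differed by -0.75 in jejunum and -0.69 in ileum, while Gsr, which regenerates reduced glutathione, differed by 0.87 and 0.75.

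Among 11 measured genes of glutathione breakdown, Chac1, which cleaves glutathione, was higher in G181R in both tissues. It read 3.03 in G181R jejunum against 0.898 in wild-type jejunum, and 7.65 in G181R ileum against 1.84 in wild-type ileum, with log2 differences of 1.75 and 2.06. Oplah, which opens 5-oxoproline, differed by -1.20 in ileum and -0.23 in jejunum. Of the 6 exporters of conjugates, all 6 were lower in G181R jejunum, with a median of -0.11. In G181R ileum 2 were lower and 4 higher, with a median of 0.02. Over all genes 51.7% were lower in jejunum and 46.8% in ileum. Abcc2, the apical carrier of glucuronide and glutathione conjugates, was the one exporter past 2-fold, in ileum. It read 8.26 in G181R jejunum against 15.3 in wild-type jejunum, and 0.664 in G181R ileum against 3.02 in wild-type ileum, with log2 differences of -0.89 and -2.18.

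The transcription factors that regulate these families in the liver and gut differed by less than 2-fold between genotypes, except Ppara in ileum. Of 14 genes, 9 were lower in G181R jejunum and 11 in G181R ileum, with medians of -0.04 and -0.12. Over all measured genes, the lower share was 51.7% in jejunum and 46.8% in ileum. Ppara, the receptor for fatty acids, differed by -0.58 in jejunum and -1.13 in ileum. The log2 differences of Nr1i2, which encodes the pregnane X receptor, were -0.01 and 0.04. Nr1i3, which encodes the constitutive androstane receptor, differed by 0.05 and -0.12 by genotype, and by -3.34 between wild-type ileum and jejunum. Nfe2l2, which encodes NRF2, differed by -0.28 and -0.25.

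Other genes that these receptors are known to drive were listed apart. Of 7 genes known as targets of the pregnane X and constitutive androstane receptors, 6 were lower in G181R in each tissue. At least 2-fold lower were 1 in jejunum and 4 in ileum, with medians of -0.57 and -1.28. Over all genes 51.7% were lower in jejunum and 46.8% in ileum, and 0.749% and 3.21% were at least 2-fold lower. Alas1 was the one that was higher, by 0.06 in jejunum and 0.43 in ileum. Cyp2c55, a cytochrome P450 gene, read 4.44 in G181R jejunum against 12.8 in wild-type jejunum, and 0.436 in G181R ileum against 9.69 in wild-type ileum. In ileum the log2 differences of Abcb1a, Cyp3a11 and Ces2a were -2.02, -1.43 and -1.28. Of 11 measured genes known as NRF2 targets, 7 were lower in G181R jejunum and 8 in G181R ileum, with medians of -0.01 and -0.07. Gpx2, a gut glutathione peroxidase, was the one at least 2-fold higher in jejunum, with a log2 difference of 1.60. Hmox1, heme oxygenase, was the one in ileum, with a log2 difference of 1.16. Of the 6 genes listed for the aryl hydrocarbon receptor, none was past 2-fold in either tissue where measured.

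Cell type markers differed between the arrays too, and their part in the values above was not tested. The summed normalised signal of the 7 enterocyte genes was 2283 in G181R jejunum against 2424 in wild-type jejunum, and 1298 in G181R ileum against 1362 in wild-type ileum. Their median log2 difference was -0.07 in both tissues, from -0.34 (Alpi) to 0.05 (Krt20) in jejunum and from -0.999 (Alpi) to 0.57 (Apoa4) in ileum. The summed signal of the 8 smooth muscle genes was 53.7 in G181R jejunum against 49.1 in wild-type jejunum, and 42.8 in G181R ileum against 97.0 in wild-type ileum. In ileum all 8 of these genes were lower in G181R, 6 of them at least 2-fold. The 6 fibroblast genes were lower in G181R in both tissues, with medians of -0.26 in jejunum and -0.64 in ileum. The summed signal of 5 adipocyte genes was 11.7 in G181R ileum against 23.9 in wild-type ileum, and 1.47 in G181R jejunum against 2.38 in wild-type jejunum. In ileum 3 of the 5 adipocyte genes were lower in G181R, with Cfd the brightest of them at 8.12 in G181R against 16.8 in wild-type, and Plin1 and Lep were higher by 0.26 and 0.25. Of the 4 liver genes, Ahsg was not above background on any array, and Alb was above background on the wild-type arrays only. Apoh differed by 0.16 in jejunum and -0.27 in ileum, and Serpina1a by -0.07 and -1.68.

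Other cell types of the epithelium and its surroundings were read from marker lists in the same way. In jejunum the median log2 differences by genotype were -0.01 for 6 goblet, 0.28 for 5 Paneth, 0.30 for 4 crypt base and -0.08 for 4 measured tuft cell genes. In ileum they were -0.18 for goblet, 0.03 for Paneth, -0.22 for crypt base and -0.84 for tuft cell genes. B cell genes had a median of -0.79 in jejunum, with 3 measured, and 0.72 in ileum, with 4 measured. Macrophage genes had medians of -0.14 in jejunum and 0.28 in ileum, and red cell genes -0.42 and -0.72, over 3 genes each. Between the segments of wild-type mice, 5 of 7 enterocyte genes were lower in ileum, with Apoa4 at -5.12 and Alpi at -2.44. The 8 smooth muscle genes were all higher in wild-type ileum than in wild-type jejunum, with a median of 1.26, and had a median of -0.72 between the segments of G181R mice.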

How the data were processed

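RNA of 4 pools of 5 mice was hybridised to 4 arrays on 1 slide, from 100 ng each. The intensity values are processed signals that the authors deposited as output of Agilent Feature Extraction 11.5.1.1, background-subtracted per the file headers and not scaled between arrays. Other values in the same deposited files are flags of 0 or 1 per spot, for example for outliers. A further table holds deposited log2 values with a median of -3.14 to -3.09 per array. For 95.8% of probes they equal the log2 processed signal minus 1 constant per array within 0.01, and the rest hold fill values, so that table was only an alternative.

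Log2 signals were averaged over the spots of a probe without outlier spots and the 75th percentile was subtracted (Python 3.11.15, pandas 2.3.3). Between 57.4% and 60.4% of the probes of an array were well above background, and no spot was saturated. Symbols came from the RefSeq accession for 72 of 81 member probes and otherwise from the array design. Where a probe was above background on 1 array of a pair, the fold is a bound against the higher of its own signal and the lowest signal well above background on the other array.

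The rule for naming gave members at least 2-fold different between genotypes, the 3 brightest of each family in either tissue, the 5 most different between segments in each direction, and up to 4 partner genes per list past 2-fold. Other genes were named after their values were seen. Members and lists were chosen with earlier results of these data known. Counting was tested on simulated data. The alternatives were normexp (limma 3.58.1, R 4.3.3, offset 50), quantile scaling, a percentile over probes well above background on all arrays, no background filter, the mean over probes, outlier spots kept, and the deposited table. The number of arrays limits the precision.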

Additional observations from a re-analysis of the deposited data

How the results depend on the processing

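No paired analysis was possible because each group had 1 array. No member result changed its direction among the counts and medians, under any of the 7 alternatives. With normexp correction, 1 member was at least 2-fold lower in G181R jejunum, the genotype medians were -0.31 in jejunum and -0.35 in ileum, the segment medians were -1.07 in G181R and -1.15 in wild-type mice, and 1 member was at least 2-fold higher in wild-type ileum. Without the background filter, 3 members in jejunum and 2 in ileum were at least 2-fold higher in G181R, 4 were higher in G181R ileum than jejunum, the genotype median in ileum was -0.30, and the segment medians were -1.05 in G181R and -0.88 in wild-type mice. The added members were not well above background on both arrays. Quantile scaling gave a segment median of -1.20 in G181R mice, and the percentile over probes well above background gave -1.29 in wild-type mice. The mean over probes gave -1.23 in G181R mice and 1 member at least 2-fold higher in wild-type ileum. The deposited table gave segment medians of -1.16 in G181R and -1.17 in wild-type mice, and Gstt1 was not past 2-fold there because its probe holds a fill value. For the other values that moved, the cause was not tested.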

Other observations

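A few genes of these families lie outside the name rule because the array design gives them an older name, and 3 were found by their updated symbol. Gstp3 read 0.506 in G181R jejunum against 0.393 in wild-type jejunum, and 0.279 in G181R ileum against 0.185 in wild-type ileum, so it was higher in G181R in both tissues, with log2 differences of 0.36 and 0.60. Sult6b2 was above background only in jejunum, at 0.971 in G181R against 0.346 in wild-type, a log2 difference of 1.49. Sult3a2 was not above background on any array. They were singled out after their values were seen, and with 1 array per group none of these differences was tested.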
